A study of Mus musculus with 28 samples.

Results

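The genotype comparison described here was made in microglia of germ-free (GF) mice, animals raised without any microbiota: 5 GF 5xFAD mice against 4 GF wild-type (WT) mice, 9 of the 28 mice whose hippocampal microglia were sequenced. Members were chosen by the housing and genotype given for each mouse, and no measured value was used. The study crossed genotype with 3 housing conditions, GF, specific pathogen-free (SPF) and SPF with a cocktail of antibiotics (ABX) for 8 weeks, and asked whether the microbiota shapes how microglia respond to amyloid. All mice were 16 weeks old, and the study's methods describe them as heterozygous males and non-transgenic littermates on a C57BL/6J background. 5xFAD mice carry mutant human transgenes, among them APP, under the Thy1 promoter, which is active in neurons, so the sorted microglia themselves are not the cells in which the transgenes are meant to be made. GF animals were derived by embryo transfer and kept in a gnotobiotic facility. Microglia were sorted as CD11b+CD45lo cells, each library came from 1 mouse, and cDNA was amplified from picogram amounts of RNA.

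Microglia are the resident macrophages of the brain. In their resting state they express purinergic and chemokine receptors such as P2ry12 and Cx3cr1. Beside amyloid plaques they take on another state that depends on the receptor Trem2 and its adaptor Tyrobp, in which apolipoprotein E, lysosomal proteases, lipid-handling proteins and growth factors are raised and the resting genes are reduced. Microglia of GF mice are known to be less mature than those of colonised mice.

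The 9 libraries held 15182194 to 26117479 reads assigned to genes, and no pair within a group was alike within counting noise. Levels are given below in CPM, read counts scaled to a common library size with TMM factors between libraries. The 8 defining markers of microglia were all present, and their summed level was 47460 to 55930 CPM in GF 5xFAD mice and 55120 to 58710 CPM in GF WT mice (2-sided exact permutation test, p = 0.0238), with P2ry12, Tmem119, Cx3cr1 and Sall1 called lower and the other 4 not called. Only mouse FAD_GF_201 reached into the range of the WT mice. Neutrophil markers reached at most 0.0895 CPM in sum and 7 of their 10 genes had no read in any of the 9 libraries, and erythrocyte markers stayed under 0.627 CPM. Summed markers of astrocytes were 169 to 202 CPM in GF 5xFAD and 225 to 292 CPM in GF WT mice (2-sided exact permutation test, p = 0.00794), where the glutamate transporter gene Slc1a3, called lower, made up most of the sum, while Gfap and Aldoc, at most 5.67 CPM, were called higher. Summed markers of endothelial cells were 570 to 800 CPM and 427 to 479 CPM (2-sided exact permutation test, p = 0.0159), of which Bsg, a gene many cell types express, made up most, and Pecam1 was called lower. Of the T and NK cell markers only Klrb1c was called, at 0 to 2.78 CPM in GF 5xFAD mice with no read in GF WT mice. The sums for monocytes, border-associated macrophages, B cells, neurons and oligodendrocytes overlapped between the groups. Whether cells of other types took part in the differences below was not tested.

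Mouse App read 215 to 280 CPM in GF 5xFAD and 217 to 244 CPM in GF WT mice, and the edgeR quasi-likelihood test called no difference (log2 fold change 0.12 ± 0.09 SE, edgeR adjusted p = 0.454). Thy1, whose promoter drives the transgenes, had reads only in mice FAD_GF_182 and FAD_GF_185, at 0.0454 and 0.793 CPM, and was not tested. App and Thy1 therefore gave no check of genotype in these cells.

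One mouse, FAD_GF_201, stood apart from its group. Its title and genotype label call it 5xFAD, but its description ends in WT, and the running number of its description (15) falls among those of the GF WT mice (14 and 16 to 18), whereas the other 4 GF 5xFAD mice have the numbers 2 to 5. What the running number marks is not given in the sources used here, so for those 4 mice genotype and number range cannot be told apart. On the first principal component of the 9 GF libraries, which held 29.3% of the variance, FAD_GF_201 lay at 10.1, the other GF 5xFAD mice at 43.5 to 60.8 and the GF WT mice at -57.7 to -42.6. The group given by its title was kept. Every gene named below as called in GF mice kept its sign and its call without this mouse, and counts of list members are given without it and for it alone.

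In the fit of all 28 mice, 15298 genes were expressed highly enough to be tested, and 2391 of them (15.6%) differed between GF 5xFAD and GF WT microglia at an adjusted p under 0.05. Of all tested genes, 1442 (9.43%) were higher and 949 (6.2%) were lower in GF 5xFAD mice, and all later counts of list members can be read against these shares. Differences were mostly small, with a median absolute log2 fold change of 0.68 over the called genes, but they were uneven in direction at the top: 609 genes rose and 149 fell by more than 2-fold, and 274 rose and 65 fell by more than 4-fold. All 5 GF 5xFAD mice lay above all 4 GF WT mice for 1398 genes (9.14%) and below them for 869 genes (5.68%), and 1742 of the called genes were separated in this way. In sorted bulk samples, fewer cells of a state and less RNA of a gene per cell cannot be told apart.

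Leaving out FAD_GF_201 gave 2746 genes, 1601 higher (10.6% of those tested) and 1145 lower (7.57%). They were called with the same 4 GF WT mice, so the position of FAD_GF_201 among them is no independent check of its genotype. Of these 2746 genes, FAD_GF_201 lay on the 5xFAD side of the WT mean for 2510 and beyond the whole WT range for 1971, though it was nearer to the WT mean than to the mean of the other 5xFAD mice for 1201, and it covered a median of 54.6% of the way between these means. Tested alone against the 4 GF WT mice, with its spread assumed equal to that of the other groups, it gave 235 genes (1.36%), 213 higher (1.23%) and 22 lower (0.127%). Between-library scaling mattered for the balance of directions: with TMM 60.3% of the called genes were higher, and with library size as the only scaling 36.6% were (1107 higher and 1919 lower), as the median log2 fold change of all tested genes moved from -0.03 to -0.15.

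**Figure D1:**
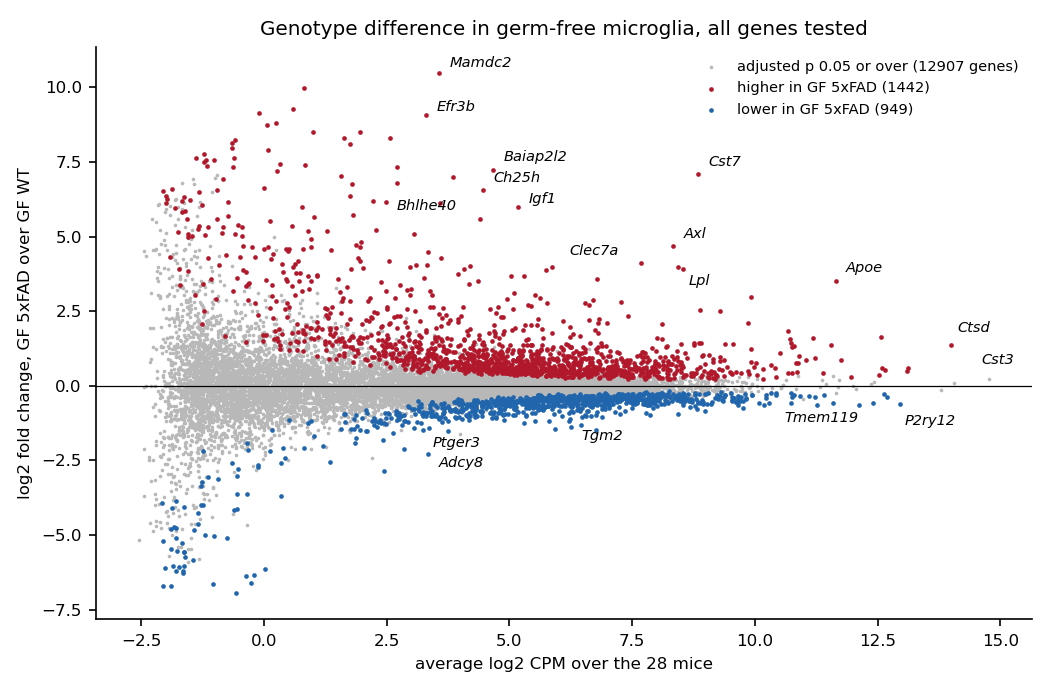
Each point is 1 of 15298 tested genes; the x axis is the average log2 CPM over the 28 mice and the y axis the log2 fold change of GF 5xFAD over GF WT microglia. Genes at an adjusted p under 0.05 are red (1442 higher) or blue (949 lower), and the red points reach far larger fold changes than the blue ones at every level above a few CPM.

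The genes with the largest increases among well-expressed genes with separated groups were Mamdc2, Efr3b, Baiap2l2, Cst7, Actr3b, Ch25h, Etl4, Igf1, Bhlhe40 and Lox. Mamdc2 (GRCm38 chromosome 19, 23302609 to 23448442, minus strand), which encodes a secreted proteoglycan, was close to absent from WT microglia: it had 38.5, 23.7, 40.5, 17.5 and 22.6 CPM in mice FAD_GF_181, FAD_GF_182, FAD_GF_184, FAD_GF_185 and FAD_GF_201 and a single read in all 4 WT libraries, a ratio of 2078 with a counting interval of 373 to 82090. Values of GF 5xFAD mice follow this order of mice below, and those of GF WT mice the order WT_GF_199, WT_GF_229, WT_GF_230 and WT_GF_231. Efr3b, whose product anchors a lipid kinase at the plasma membrane, had 17.0, 53.4, 17.2, 31.9 and 7.53 CPM against 3 reads in the WT libraries together, a ratio of 629 (counting interval 215 to 3050). These intervals cover counting error only and hold at 95%.

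Cst7 (GRCm38 chromosome 2, 150570415 to 150578944, plus strand) encodes cystatin F, an inhibitor of lysosomal cathepsins. It read 1652, 1443, 1335, 1425 and 775 CPM in GF 5xFAD mice and 6.89, 5.65, 17.0 and 9.15 CPM in GF WT mice (log2 fold change 7.10 ± 0.29 SE, edgeR adjusted p = 1.11e-16). Igf1, insulin-like growth factor 1, read 122, 90.0, 125, 121 and 45.9 CPM against 2.06, 2.11, 1.72 and 0.322 CPM (log2 fold change 5.99 ± 0.46 SE, edgeR adjusted p = 7.57e-11). Ch25h makes 25-hydroxycholesterol, an oxysterol that restrains sterol synthesis. It read 72.2, 74.4, 49.3, 74.9 and 29.6 CPM against 0.0895, 0.745, 0.805 and 1.03 CPM (log2 fold change 6.55 ± 0.67 SE, edgeR adjusted p = 2.40e-08). Bhlhe40, a transcriptional repressor of macrophages and lymphocytes, rose from 0.644 to 1.86 CPM in WT to 35.0 to 81.9 CPM in 5xFAD mice. The membrane-bending protein gene Baiap2l2 (log2 fold change 7.24), the actin-related protein gene Actr3b (6.99), Etl4 (6.11) and Lox (5.08), whose enzyme crosslinks collagen and elastin, completed the group. The rule took only genes whose groups did not overlap, so the gap to the WT mice is no finding about FAD_GF_201, which had the lowest level of the 5xFAD mice in 8 of the 10.

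The 10 largest decreases by the same rule were smaller: Adcy8, Ptger3, Gpr165, Tmem44, Rasgrp4, Tgm2, Slco4a1, Il7r, Actn1 and Rbm41. Slco4a1, an organic anion transporter (GRCm38 chromosome 2, 180456245 to 180474867, plus strand), read 39.4, 45.6, 59.7, 43.7 and 70.7 CPM in GF 5xFAD and 148, 130, 128 and 115 CPM in GF WT mice (log2 fold change -1.33 ± 0.15 SE, edgeR adjusted p = 1.90e-07). Tgm2, transglutaminase 2, read 40.4, 40.3, 43.4, 23.2 and 48.1 CPM against 123, 84.4, 95.8 and 106 CPM (log2 fold change -1.39 ± 0.16 SE, edgeR adjusted p = 2.97e-07). FAD_GF_201 was the highest of the 5xFAD mice for both, and the gap between the groups was again fixed by the rule. Adcy8, an adenylyl cyclase, had the largest fall, by 2.29 on the log2 scale, with 0.0534 CPM in FAD_GF_181, 2.60 to 6.70 CPM in the other 5xFAD mice and 7.78 to 21.4 CPM in WT mice. Ptger3 encodes a prostaglandin E2 receptor and Il7r the alpha chain of the interleukin 7 receptor, and their log2 fold changes were -1.50 and -1.26. Rasgrp4 (-1.41), which activates Ras, the orphan receptor gene Gpr165 (-1.50), Tmem44 (-1.45), the actin crosslinker gene Actn1 (-1.26) and the RNA-binding protein gene Rbm41 (-1.20) made up the rest.

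Genes of the plaque-associated state were higher in GF 5xFAD mice almost throughout. Of 41 such genes, all tested, 40 were called higher and 1 lower, with a median log2 fold change of 2.79 beside -0.03 over all tested genes, and 38 had every GF 5xFAD mouse above every GF WT mouse. The members were chosen with earlier results of these data known, so these counts are no independent test. With the stricter filter of 10 counts in every library 33 were called higher and the median was 1.98, as members with fewer reads in any library are then not tested. Together they took 6.35% of all reads in FAD_GF_201, 8.41 to 9.33% in the other GF 5xFAD mice and 2.68 to 3.43% in GF WT mice. The exception was Lpcat2, which makes phosphatidylcholine and platelet-activating factor, at 1407 to 1690 CPM in GF 5xFAD and 1819 to 1974 CPM in GF WT mice (log2 fold change -0.32 ± 0.08 SE, edgeR adjusted p = 0.00292).

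Among the receptors and adaptors of this state 12 of 12 were called higher. Trem2, the lipid-sensing receptor on which the state depends, read 3268, 3464, 3278, 3248 and 2406 CPM in GF 5xFAD and 1459, 1833, 1889 and 1730 CPM in GF WT mice (log2 fold change 0.86 ± 0.10 SE, edgeR adjusted p = 3.75e-07). Its signalling adaptor Tyrobp read 3723, 3167, 3383, 3978 and 2133 CPM against 746, 914, 1084 and 943 CPM (log2 fold change 1.83 ± 0.15 SE, edgeR adjusted p = 1.29e-10). The fold change of the receptor was smaller than that of its adaptor, and both were abundant in WT cells. Larger differences came from receptors with lower levels in WT cells: Axl, a receptor tyrosine kinase for apoptotic cells, read 545 to 952 CPM against 22.2 to 46.1 CPM (log2 fold change 4.68 ± 0.31 SE, edgeR adjusted p = 4.66e-12). Clec7a, the beta-glucan receptor dectin 1, read 305 to 529 CPM against 21.6 to 35.2 CPM, a log2 fold change of 4.11, and Itgax, the integrin CD11c, had one of 3.87. Cd300lf (3.59), Cd52 (2.79), the tetraspanins Cd63 (2.07) and Cd9 (1.43), Cd68 (1.09) and Tlr2 (0.55) followed, and Cd74 was the only member of the group whose genotypes overlapped.

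All 10 secreted factors were called higher. Spp1, osteopontin, read 37.9, 44.0, 44.3, 62.4 and 28.9 CPM in GF 5xFAD and 1.07, 3.97, 5.74 and 4.77 CPM in GF WT mice (log2 fold change 3.50 ± 0.48 SE, edgeR adjusted p = 4.34e-06). Csf1, the growth factor of microglia and macrophages, read 132 to 257 CPM against 24.0 to 35.3 CPM, a log2 fold change of 2.79. Gpnmb, a glycoprotein of lysosomes and the cell surface, read 32.3, 4.58, 2.33, 5.11 and 1.45 CPM against 2 reads in the WT libraries together, a ratio of 307 with a counting interval of 84.7 to 2538, so that FAD_GF_181 held most of its signal. Log2 fold changes of the other members ran from 1.25 for the galectin Lgals3, whose genotypes overlapped, to 3.58 for the chemokine Ccl3.

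In the lipid-handling group Apoe (GRCm38 chromosome 7, 19696109 to 19699188, minus strand), the main lipid carrier of the brain, read 10150, 9253, 9330, 9596 and 5321 CPM in GF 5xFAD and 405, 955, 922 and 749 CPM in GF WT mice (log2 fold change 3.53 ± 0.26 SE, edgeR adjusted p = 3.10e-11). Lpl, lipoprotein lipase, read 635 to 1008 CPM against 30.8 to 78.4 CPM, and Fabp5, a fatty acid carrier, 4.57 to 25.3 CPM against 0.215 to 0.559 CPM. Both were separated between the groups, with log2 fold changes of 3.99 and 5.21. The proteases and inhibitors (6 of 6) and the remaining members (8 of 8) were also called higher, among them Hif1a, a transcription factor of the hypoxia response (log2 fold change 1.55), and Cox6a2, a cytochrome oxidase subunit known from muscle (21.4 to 45.6 CPM against 1.18 to 2.31 CPM, log2 fold change 4.29).

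The mouse with the conflicting description carried this programme at a lower level. FAD_GF_201 had the lowest level of the 5 GF 5xFAD mice in 37 of the 41 genes, and set alone against the GF WT mice it gave 34 genes called higher, none lower and a median log2 fold change of 1.93. Without it the list gave 40 higher, 1 lower and a median of 2.92. The plot of levels by mouse shows this gap.

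**Figure D2:**
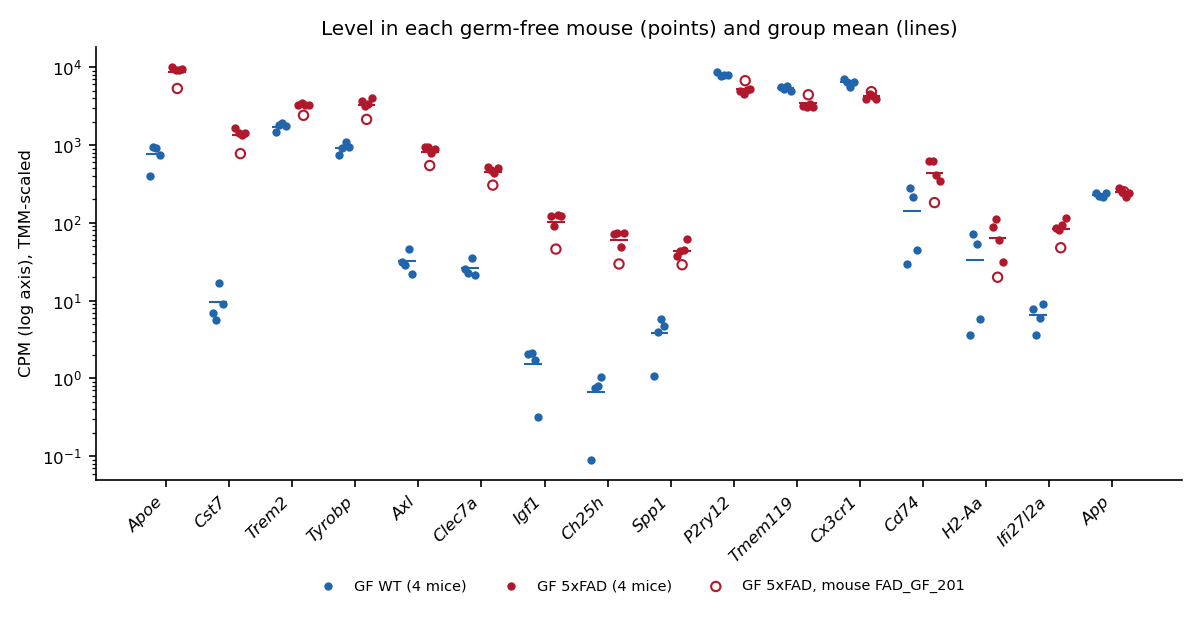
Level of 16 genes in each germ-free mouse in CPM on a log axis, with GF WT mice in blue, GF 5xFAD mice in red and FAD_GF_201 as an open red circle; lines mark the mean of all mice of a group. FAD_GF_201 lies below the other GF 5xFAD mice for Apoe (5321 CPM) and Cst7 (775 CPM) but far above every WT mouse, whereas H2-Aa and App overlap between genotypes.

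Genes of the homeostatic state moved the other way and by less. Of 37 tested, 18 were called lower and 1 higher, with a median log2 fold change of -0.37, and 21 had every GF 5xFAD mouse below every GF WT mouse. P2ry12, the receptor through which processes sense nucleotides, read 4992, 4457, 5018, 5175 and 6705 CPM in GF 5xFAD and 8779, 7750, 8032 and 7825 CPM in GF WT mice (log2 fold change -0.62 ± 0.11 SE, edgeR adjusted p = 0.000109). Tmem119, a marker of microglia, read 3213, 3120, 3331, 3033 and 4421 CPM against 5607, 5222, 5669 and 4975 CPM (log2 fold change -0.65 ± 0.10 SE, edgeR adjusted p = 1.31e-05). FAD_GF_201 was the highest 5xFAD mouse for both and still below the lowest WT mouse. The largest falls of the list were those of Ecscr, by 0.97, and of the crystallin gene Crybb1, by 0.91 on the log2 scale, and Cx3cr1, the fractalkine receptor, fell by 0.57. Csf1r, the receptor of Csf1, and Siglech, a lectin gene of high level in microglia, were not called, at -0.13 and -0.05. Tgfbr2, a receptor of transforming growth factor beta, was the one member called higher (log2 fold change 0.37). The median was below 0 with each of the 3 scalings, but with library size alone 26 were called lower and none higher, and FAD_GF_201 alone gave no call and a median of -0.16. Without that mouse 22 were called lower and 2 higher.

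Transcription factors of microglial identity and activation had 5 of 34 called higher and 5 lower and a median of 0.00. The balance depended on the processing, with 5 higher and 10 lower and a median of -0.13 with library size alone and 7 higher and 2 lower with length offsets. Without FAD_GF_201 the counts were again 5 and 5, and that mouse alone gave 3 higher and none lower. Among the higher were Bhlhe40, Hif1a, Atf3 (log2 fold change 1.87) and Myc (1.23). Lower were Sall1, a factor that marks microglia among macrophages (467 to 574 CPM against 647 to 754 CPM, log2 fold change -0.50 ± 0.09 SE, edgeR adjusted p = 0.000349), Mef2a, Maf, Nfkb1 and Tfe3. The lineage factor genes Spi1 (0.12) and Irf8 (0.28) were not called, and neither were Tfeb (-0.07) and Mitf (0.26), related to Tfe3 and known to drive lysosomal genes.

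Lysosomal genes were higher as a broad set. Of the 18 subunits and accessory proteins of the V-ATPase, the pump that acidifies lysosomes, 13 were called higher and 1 lower (median log2 fold change 0.46). Atp6v1a, its catalytic subunit, read 120, 129, 115, 135 and 118 CPM in GF 5xFAD and 76.1, 80.3, 84.6 and 78.9 CPM in GF WT mice (log2 fold change 0.63 ± 0.12 SE, edgeR adjusted p = 0.000353), and here FAD_GF_201 lay within the range of its group. Atp6v0d2, a membrane subunit of macrophages and osteoclasts, read 2.35, 0, 1.76, 3.17 and 1.56 CPM against 3 WT reads in all, a ratio of 42.7 with a counting interval of 14.4 to 209. Atp6v0a2, a subunit known from the Golgi, was lower (189 to 268 CPM against 266 to 372 CPM, log2 fold change -0.51).

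Of 15 cathepsins and cystatins tested, 10 were called higher and none lower (median 0.92). Ctsd, an aspartic protease and one of the most abundant transcripts here, read 32000, 29790, 28650, 32470 and 22560 CPM in GF 5xFAD and 10110, 11140, 12560 and 10840 CPM in GF WT mice (log2 fold change 1.38 ± 0.09 SE, edgeR adjusted p = 1.65e-12). Ctsd and Apoe together took 2.66 to 3.90% of the reads of a GF 5xFAD library and 1.07 to 1.37% of those of a GF WT library. Ctsb (1.62), Ctsz (1.37), Ctsl (1.34) and Ctsa (0.92) rose with it, whereas the asparaginyl protease gene Lgmn (-0.11) and the cystatin C gene Cst3 (0.23), very abundant in both genotypes, were not called.

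Of 50 lysosomal hydrolases and membrane proteins, 28 were called higher and 3 lower (median 0.40). Hexa, the alpha subunit of hexosaminidase, read 3104, 2941, 2880, 2833 and 2203 CPM against 1133, 1042, 1292 and 1104 CPM (log2 fold change 1.29 ± 0.09 SE, edgeR adjusted p = 5.82e-12). Gla and Glb1, which cleave galactose from lipids, rose with log2 fold changes of 1.72 and 1.09, the sterol carrier gene Npc2 with one of 1.39, and the membrane protein genes Lamp1 and Lamp2 with 0.78 and 0.56. The acid phosphatase gene Acp2 (-0.38), the sulfamidase gene Sgsh (-0.86) and the lysosomal phospholipase gene Pla2g15 (-0.29) were lower. Without FAD_GF_201 the V-ATPase, cathepsin and hydrolase lists had 14, 10 and 29 genes called higher and 1, 0 and 3 lower. Set alone against WT, FAD_GF_201 gave 3, 7 and 14 members called higher in these 3 lists and none lower, with medians of 0.41, 0.67 and 0.32 over the members tested in the fit of all mice. The cathepsin median was 0.45 with Ctsk and Csta1, which the fit of FAD_GF_201 also tested.

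Many lysosomal genes hold the E-box CACGTG, which the Tfeb family can bind, near their start. In RefSeq windows from 250 bases before to 50 bases after a start (GRCm38.p6), CACGTG, which reads the same on both strands and is also a word of other factors such as Myc, occurred in 7.15% of 32851 windows and in 11.6% of the 10200 tested genes with a window. It occurred in 4 of 12 V-ATPase genes with a window (33.3%), in 5 of 13 cathepsin genes (38.5%) and in 10 of 41 hydrolase and membrane protein genes (24.4%). The 60-base stretches of 4 of the called genes below, 5′ to 3′ on the strand of the gene with CACGTG in capitals, show where it lies, and a match is a description of sequence and neither a bound site nor a cause.
Gla, chrX:134601167-134601226, minus strand: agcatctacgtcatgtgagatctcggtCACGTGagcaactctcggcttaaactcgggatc
Ctsd, chr7:142387893-142387952, minus strand: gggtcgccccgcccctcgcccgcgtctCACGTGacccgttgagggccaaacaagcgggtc
Ctsl, chr13:64370711-64370770, minus strand: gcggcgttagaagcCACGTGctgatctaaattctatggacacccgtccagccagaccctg
Glb1, chr9:114401003-114401062, plus strand: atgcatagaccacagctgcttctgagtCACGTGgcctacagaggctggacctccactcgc
The matches shown stood 194, 98, 236 and 48 bases before the start of these 4 genes, and Gla and Ctsd held 1 more outside the stretch.

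Subunits of the respiratory chain, which makes ATP in mitochondria, were higher by modest amounts in nearly every complex. Of 37 nuclear-encoded subunits of complex I, 27 were called higher and none lower (median log2 fold change 0.58), and of 39 subunits of complexes II to V, 29 were called higher and none lower (median 0.64). Ndufa1, a small accessory subunit of complex I, read 104, 83.2, 78.9, 108 and 48.4 CPM in GF 5xFAD and 16.7, 20.4, 23.9 and 20.7 CPM in GF WT mice (log2 fold change 2.05 ± 0.20 SE, edgeR adjusted p = 7.87e-09). Cox6a1, a subunit of cytochrome oxidase, read 223, 193, 168, 213 and 120 CPM against 65.1, 82.4, 87.1 and 80.6 CPM (log2 fold change 1.22 ± 0.16 SE, edgeR adjusted p = 1.87e-06). Without WT_GF_199, 18 of the complex I genes were called.

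The 7 mitochondrially encoded genes that could be tested, of 13, were all called higher with a narrow range of log2 fold changes from 0.95 to 1.15. One of them, mt-Cytb of complex III, read 787, 686, 743, 828 and 530 CPM against 357, 327, 450 and 342 CPM (log2 fold change 0.95 ± 0.19 SE, edgeR adjusted p = 0.000474). Copies of mitochondrial sequence in the nuclear genome can share reads with these genes.

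Of 80 cytosolic ribosomal protein genes, 50 were called higher and none lower (median 0.81). Rpl32, of the large subunit, read 149, 129, 151, 166 and 95.2 CPM against 32.8, 49.7, 46.4 and 49.7 CPM (log2 fold change 1.63 ± 0.19 SE, edgeR adjusted p = 2.41e-07), and Rps14, of the small subunit, 88.2 to 160 CPM against 40.8 to 58.4 CPM (log2 fold change 1.31). Ribosomal protein genes have many processed copies in the genome, so counts of single members are uncertain. Their list level was lowest in WT_GF_199 among all 9 mice. The proteasome, which degrades tagged proteins, contrasted with the ribosome: 6 of 14 genes of its 20S core and none of 17 of its 19S regulator were called higher, none was called lower, and the median over its 31 genes was 0.14. With library size alone 2 genes were called higher and the median was 0.01, without FAD_GF_201 there were 8, and that mouse alone gave no call.

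Mouse FAD_GF_201 and transcript length moved with these lists. This mouse alone gave 1 of 37, 0 of 39, 0 of 7 and 2 of 80 genes called in complex I, complexes II to V, the mitochondrial genome and the ribosome, with medians of 0.32, 0.37, 0.49 and 0.43. Without it 28, 30, 7 and 54 genes were called higher and none lower. Over all tested genes the median log2 fold change went from 0.09 for transcripts with at most 1000 bases of exon and 0.11 for those between 1000 and 2000 bases to -0.11 for those over 6000 bases, and the median exon length was 1381 bases for complex I and 1657 bases for ribosomal proteins. With an offset that removed this trend, 22 of 37, 26 of 39, 7 of 7 and 51 of 80 genes were called higher and none lower, at medians of 0.52, 0.54, 0.84 and 0.74. The part of RNA quality in the difference was not tested.

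The word GCATGCGC, bound by the nuclear respiratory factor NRF1, is common at genes of the respiratory chain. Searched on both strands, it occurred in 2.71% of all windows and 6% of those of tested genes, in 3 of 33 complex I genes (9.09%) and in 7 of 30 genes of complexes II to V (23.3%). Stretches of 4 called genes are printed with the word on either strand in capitals, in Cox6a1, Atp5k and Ndufa11 as overlapping matches on both strands, again as a description of sequence only.
Cox6a1, chr5:115349085-115349144, minus strand: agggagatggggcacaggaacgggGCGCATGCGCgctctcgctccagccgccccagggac
Atp5k, chr5:108434414-108434473, minus strand: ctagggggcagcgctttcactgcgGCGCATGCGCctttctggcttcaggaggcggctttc
Ndufa11, chr17:56717678-56717737, plus strand: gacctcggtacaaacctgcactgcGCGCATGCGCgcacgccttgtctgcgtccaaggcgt
Ndufa6, chr15:82354341-82354400, minus strand: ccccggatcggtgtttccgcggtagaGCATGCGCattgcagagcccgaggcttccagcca
The log2 fold changes of these genes were 1.22, 0.91, 0.55 and 0.51.

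**Figure D3:**
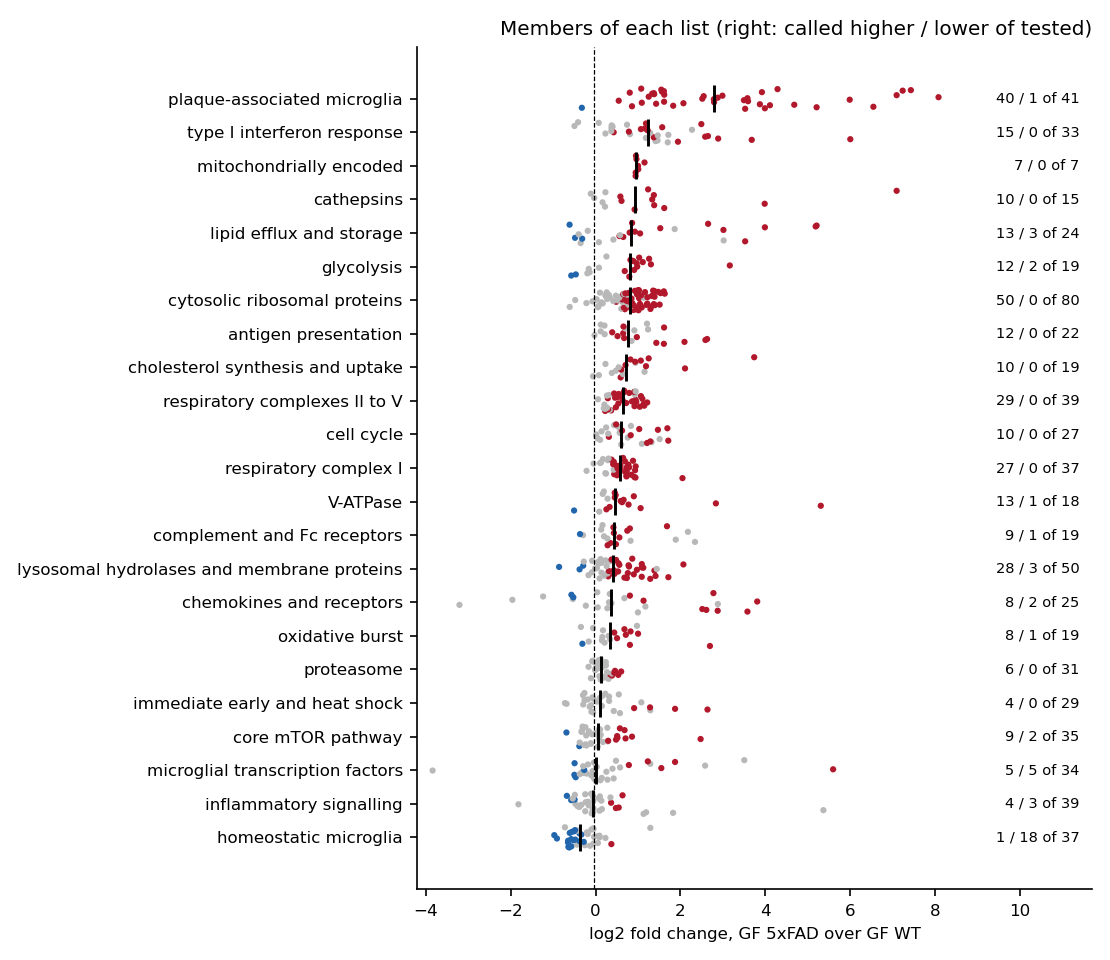
Log2 fold change of GF 5xFAD over GF WT for every tested member of 23 gene lists, red where called higher, blue where called lower and grey otherwise, with a black bar at the median of the list and a dashed line at the median of all tested genes. The plaque-associated list lies farthest to the right (median 2.79) and the homeostatic list is the one with most of its calls on the left (18 of 37).

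Enzymes of glycolysis were higher along most of the pathway, with 12 of 19 called higher and 2 lower (median 0.82). Pkm, pyruvate kinase, read 447, 435, 384, 466 and 299 CPM in GF 5xFAD and 153, 164, 175 and 186 CPM in GF WT mice (log2 fold change 1.26 ± 0.13 SE, edgeR adjusted p = 4.04e-08). Aldoa (0.98), Gapdh (0.97), Ldha (1.03), Tpi1 (1.31) and the glucose transporter gene Slc2a1 (0.80) were also higher. The 2 lower genes stand at the entry of sugar, the fructose transporter gene Slc2a5 (745 to 949 CPM against 1182 to 1297 CPM, log2 fold change -0.57) and the hexokinase gene Hk1 (-0.47). Without FAD_GF_201 the counts were again 12 and 2, and that mouse alone gave 4 higher and none lower.

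Genes of cholesterol synthesis and uptake were called higher in 10 of 19 and lower in none (median 0.71). Sqle, squalene epoxidase, read 8.41 to 17.2 CPM in GF 5xFAD and 1.18 to 5.15 CPM in GF WT mice, and the groups did not overlap (log2 fold change 2.11 ± 0.47 SE, edgeR adjusted p = 0.00207). Among genes of lipid efflux and storage, 13 of 24 were called higher and 3 lower (median 0.83). Storage and fatty acid genes such as Plin2, a lipid droplet coat (83.3 to 109 CPM against 43.7 to 49.5 CPM, log2 fold change 1.05), Soat1, which esterifies cholesterol (0.93), and Acaca, of fatty acid synthesis (2.65), were among the risers. The sterol exporters Abca1 (-0.35) and Abcg1 (0.08) were not called, and Lpcat3 (-0.32), Mylip (-0.48) and Acsl1 (-0.61) were lower. Without FAD_GF_201, 11 genes were higher in the cholesterol list, and 13 higher and 3 lower in the lipid list. That mouse alone gave no call in the cholesterol list (median 0.28) and 7 higher in the lipid list.

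Interferon-induced genes showed a wide spread among WT mice. Of 33 tested, 15 were called higher and none lower (median 1.23), but only 6 were separated between the genotypes, and WT_GF_230 was high in this response. Its list level, relative to the mean of the GF WT mice, was 1.59 on the log2 scale, against -1.03, -0.50 and -0.06 in the other GF WT mice and 1.10 to 2.53 in the GF 5xFAD mice. Without WT_GF_230, 26 genes were called, in a fit of the GF mice alone 9 were, and limma with sample weights called 23. Without FAD_GF_201, 16 were called, and that mouse alone gave 1 (median 0.54).

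Ifi27l2a, an interferon-induced mitochondrial protein gene, kept the groups apart, with 86.9, 79.6, 93.2, 114 and 47.8 CPM in GF 5xFAD and 7.74, 3.66, 5.90 and 8.95 CPM in GF WT mice (log2 fold change 3.68 ± 0.34 SE, edgeR adjusted p = 3.59e-09). Oas1a, which makes the messenger that switches on RNase L, read 15.7, 20.7, 31.4, 28.6 and 11.63 CPM against 3.54, 0.372, 7.73 and 2.00 CPM (log2 fold change 2.65 ± 0.45 SE, edgeR adjusted p = 8.55e-05). Ifit3, by contrast, read 37.8 CPM in WT_GF_230 and 15.4 to 78.7 CPM in GF 5xFAD mice, so the groups overlapped and the test did not call it (log2 fold change 1.42 ± 0.61 SE, edgeR adjusted p = 0.122). Irf7 (1.29) and Isg15 (1.19) overlapped in the same way and were not called.

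The word GAAANNGAA, part of the element bound by interferon-activated factors, occurred on either strand in 8.56% of all windows and 8.98% of those of tested genes, and in 19 of the 26 interferon-induced genes with a window (73.1%). Of the 10 called genes with a window, 5 held it. Oas1a, Slfn5 and Bst2 are shown with each match in capitals, 2 in every stretch: they overlap in Oas1a and Bst2, and in Slfn5 the one nearer to the start is the reverse complement.
Oas1a, chr5:120907526-120907585, minus strand: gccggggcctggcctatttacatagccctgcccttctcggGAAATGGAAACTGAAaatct
Slfn5, chr11:82951945-82952004, plus strand: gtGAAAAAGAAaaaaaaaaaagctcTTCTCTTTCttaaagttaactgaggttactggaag
Bst2, chr8:71537562-71537621, minus strand: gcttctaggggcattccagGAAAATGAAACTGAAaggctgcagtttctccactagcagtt
Slfn5, an antiviral gene, and Bst2, which tethers virions to the cell, had log2 fold changes of 2.49 and 1.23.

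Of 22 genes of antigen presentation, 12 were called higher and none lower. In the class I pathway, which shows peptides to CD8 T cells, 10 of 14 were called higher (median log2 fold change 0.76). B2m, the invariant chain of class I molecules, read 3969, 4028, 3400, 4713 and 2427 CPM in GF 5xFAD and 1054, 1177, 1370 and 1258 CPM in GF WT mice (log2 fold change 1.61 ± 0.16 SE, edgeR adjusted p = 7.69e-09), and the heavy chain genes H2-D1 and H2-K1, near-identical in parts to each other and to the H2-Q genes, had log2 fold changes of 2.10 and 1.43. In the class II pathway, 8 of 8 fold changes lay above 0 (median 0.81) and 2 were called, H2-DMa (0.66) and Cd74 (1.62). Without FAD_GF_201, 12 of the 22 genes were called higher, and that mouse alone gave 6, all of class I, with a median of 0.24.

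Levels of the class II genes H2-Aa, H2-Eb1, H2-Ab1 and Cd74 were spread widely within GF WT mice, whereas H2-DMa (236 to 258 CPM, against 326 to 432 CPM in GF 5xFAD mice) was not. H2-Aa, a class II alpha chain, read 88.6, 113, 60.9, 31.6 and 19.98 CPM in GF 5xFAD and 3.63, 71.4, 52.8 and 5.86 CPM in GF WT mice, so WT_GF_229 and WT_GF_230 lay within the range of the 5xFAD mice and the other WT mice below it (log2 fold change 0.92 ± 0.67 SE, edgeR adjusted p = 0.403). Cd74, the invariant chain, had the same order, with 29.2, 284, 214 and 44.9 CPM in WT mice and 181.9 to 627 CPM in 5xFAD mice (log2 fold change 1.62 ± 0.52 SE, edgeR adjusted p = 0.0328), and over the alternative settings its adjusted p ranged from 0.00893 to 0.116. Summed markers of border-associated macrophages, cells that share CD11b and express class II but carry more CD45 than the CD45lo gate of the sort takes in, ran from 11.8 to 88.5 CPM in GF 5xFAD and from 10.8 to 44.3 CPM in GF WT mice. Their part in the class II levels was not tested.

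**Figure D4:**
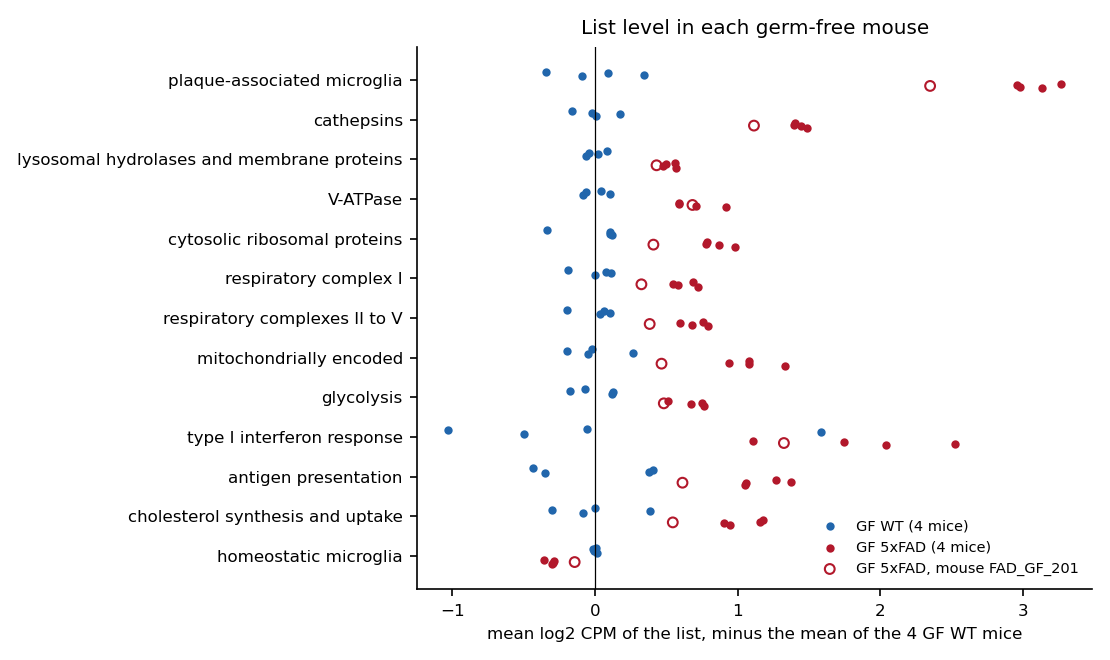
Mean log2 CPM over the members of 13 gene lists in each germ-free mouse, minus the mean of the 4 GF WT mice, with WT mice in blue, 5xFAD mice in red and FAD_GF_201 as an open circle. The genotypes are apart for every list drawn except the interferon response, where WT_GF_230 (1.59) lies among the 5xFAD mice, and FAD_GF_201 is nearest to WT in lists such as respiratory complex I (0.33) and the mitochondrially encoded genes (0.47).

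Chemokine ligands rose in part. Of 25 chemokine and receptor genes, 8 were called higher and 2 lower (median 0.38, or 0.77 with 10 counts in every library). Without FAD_GF_201 the counts were 9 and 2 and the median 0.71, and that mouse alone gave 4 higher, none lower and a median of -0.10. Ccl3, which attracts monocytes and T cells, read 353, 414, 207, 331 and 147 CPM in GF 5xFAD and 19.3, 21.1, 41.7 and 14.8 CPM in GF WT mice (log2 fold change 3.58 ± 0.32 SE, edgeR adjusted p = 1.35e-09). Ccl4 (2.88), Ccl6 (2.52) and Cxcl16 (1.13) were also higher, as was the receptor gene Cxcr4 at low levels, whereas Cx3cr1 was among the lower ones. Ccl2 (1.00) and Cxcl10 (0.38) were not called, and WT_GF_230 had the second highest Cxcl10 level of the 9 mice.

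Inflammatory signalling stood near the background: 4 of 39 genes were called higher and 3 lower, with a median of -0.07, and with library size alone 1 was higher and 10 lower. Without FAD_GF_201, 4 were higher and 6 lower, and that mouse alone gave 1 call, higher. None of 11 cytokine and effector genes was called. Il1b read 31.8, 18.5, 14.3, 21.6 and 16.0 CPM in GF 5xFAD and 10.3, 1.74, 9.87 and 0.902 CPM in GF WT mice, so that the groups did not overlap, but it was not called (log2 fold change 1.83 ± 0.79 SE, edgeR adjusted p = 0.124). Tnf (1.13) and Il6 (-0.06) were not called either. Tlr2, Tlr1 and Cd14, which sense bacterial lipoproteins and lipopolysaccharide, were higher with log2 fold changes of 0.55, 0.48 and 0.37, and Nfkbiz was higher (0.64), while Traf6, Nfkb1 and Nfkbie were lower.

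Within the oxidative burst list 8 of 19 genes were called higher and 1 lower (median 0.35), and with library size alone 5 were higher and 2 lower (median 0.22). Cybb, the catalytic subunit of the phagocyte NADPH oxidase, read 106, 84.5, 78.8, 111 and 66.1 CPM against 3.72, 17.9, 25.5 and 8.05 CPM (log2 fold change 2.696 ± 0.48 SE, edgeR adjusted p = 0.000157), its membrane partner Cyba had a log2 fold change of 0.81, and the cytosolic subunit gene Ncf1 was lower (-0.31). Among complement and Fc receptor genes 9 of 19 were called higher and 1 lower (median 0.43). The 3 chains of C1q rose by small amounts (0.28 to 0.48), the Fc receptor genes Fcgr4 (1.68), Fcgr2b (0.81), Fcer1g and Fcgr3 rose, and Itgam, the integrin CD11b used in the sort, fell by 0.37 on the log2 scale (1218 to 1520 CPM against 1592 to 1915 CPM). Without FAD_GF_201 the counts were 9 and 1 in both lists, and that mouse alone gave none in the burst list (median 0.12) and 1 in the other.

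The mTOR pathway, which senses nutrients at the lysosome, had 9 of 35 genes called higher and 2 lower (median 0.05), or 7 higher and 4 lower with library size alone (median -0.07). The risers included 4 of the 5 genes of the Ragulator scaffold on the lysosome, such as Lamtor1 (63.1 to 93.3 CPM against 46.6 to 57.4 CPM, log2 fold change 0.71), and the GTPase gene Rragd (2.48), while Rptor (-0.38) and Sesn1 (-0.69) were lower. Of 27 cell cycle genes 10 were called higher and none lower (median 0.60), among them Cdk1, the mitotic kinase (16.9 to 31.3 CPM against 8.80 to 12.6 CPM, log2 fold change 1.21 ± 0.27 SE, edgeR adjusted p = 0.00208). Mki67 (0.60) and Top2a (1.09), common markers of dividing cells, were not called, and without FAD_GF_182 the count was 6. Of 29 immediate early and heat shock genes, which rise during dissociation of tissue, 4 were called higher (Egr2, Atf3, Ier2 and Ier3) and none lower (median 0.10). With library size alone 4 were higher and 2 lower (median -0.03), and limma with sample weights called 7 higher. Fos (0.58), Jun (-0.06) and Hspa1a (-0.18) were not called. Without FAD_GF_201 the mTOR list had 9 higher and 2 lower, the cell cycle list 11 higher and the immediate early list 6 higher and 1 lower. That mouse alone gave no call in the mTOR and cell cycle lists (medians 0.01 and 0.34) and 1 in the immediate early list.

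The same genotype comparison can be made in SPF mice (3 5xFAD, 5 WT) and in ABX mice (6 5xFAD, 5 WT), which share no mice with the GF groups. By edgeR it called 699 genes in SPF mice, 3.73% of the tested genes as higher and 0.837% as lower, and 2207 in ABX mice, 9.45% as higher and 4.98% as lower. The SPF count was 437 without FAD_SPF_1144 and 2154 by limma with sample weights, and the shares below rest on the edgeR count. Of the 2391 genes called in GF mice, 550 were called in the same direction in SPF mice (23% of the GF genes and 78.7% of the SPF genes). For ABX mice the shared calls came to 39.0% of the GF genes and 42.2% of the ABX genes. The numbers of mice differ between the conditions, so a call in one and not in another is no difference between them. Called in the opposite direction were 1 gene in SPF and 12 in ABX mice.

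Tested directly, the genotype difference of GF mice was not shown to depart from that of SPF mice for any gene: the interaction gave 0 genes at an adjusted p under 0.05 (edgeR, smallest adjusted p = 0.0724), with 1304 genes at an unadjusted p under 0.05. DESeq2 gave 25 genes and limma with sample weights 116. Plaque-associated genes were called higher in 40 of 41 in GF, 40 of 41 in SPF and 40 of 41 in ABX mice, with medians of 2.79, 2.45 and 2.23. Cst7 for one had log2 fold changes of 7.10, 6.52 and 6.36, and its interaction of GF against ABX was 0.74 (edgeR adjusted p = 0.221). Of the 41 genes, 6 did have an interaction against ABX mice, positive for Tyrobp, B2m, Ccl6, Fth1 and Cox6a2 and negative for Cd74. Tyrobp and B2m stayed under an adjusted p of 0.05 in all 28 fits that left out a mouse, Cd74 in 24, Ccl6 in 9, Cox6a2 in 8 and Fth1 in 6, and by limma with sample weights Cox6a2 (adjusted p = 0.0998) and Cd74 (0.0932) were not called.

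Against ABX mice 269 of the tested genes (1.76%) had an interaction, with the genotype difference more positive in GF mice for 129 and more negative for 140, and 178 of them were among the genes called in GF mice. Without WT_GF_229 the count was 85, and without FAD_GF_201 it was 491. The largest by rule on the positive side were mt-Rnr2, the mitochondrial 16S ribosomal RNA, Adora1, the adenosine A1 receptor, and Rn18s-rs5, an 18S ribosomal RNA related gene. Adora1 read 32.0, 35.5, 20.3, 25.6 and 16.8 CPM in GF 5xFAD and 0.940, 1.92, 1.29 and 2.19 CPM in GF WT mice, and 9.41 to 14.3 CPM and 1.39 to 3.69 CPM in the 2 ABX groups, so both its higher 5xFAD level and its lower WT level entered the interaction of 1.79 (edgeR adjusted p = 0.0157, limma with sample weights 0.0900). For mt-Rnr2 the groups were apart in GF mice (304 to 667 CPM against 188 to 218 CPM) and overlapped in ABX mice (184.1 to 587 CPM against 324 to 922 CPM), an interaction of 2.00 ± 0.36 SE (edgeR adjusted p = 0.00685). Tyrobp (0.88), B2m (1.07) and Ndufa1 (1.37) also differed more in GF mice. Slco4a1 fell by 1.33 in GF and by 0.34 in ABX mice on the log2 scale, an interaction of -0.99 (edgeR adjusted p = 0.0154).

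On the negative side stood F13a1, a clotting factor subunit made by monocytes and macrophages, and the class II genes. H2-Aa had a median of 134 CPM (14.8 to 239) in ABX 5xFAD and 0.951 CPM (0.661 to 3.26) in ABX WT mice, against 60.9 CPM (19.98 to 113) and 29.3 CPM (3.63 to 71.4) in the GF groups. Its interaction was -5.34 ± 0.99 SE (edgeR adjusted p = 0.00691), and H2-Eb1 had one of -5.53, H2-Ab1 one of -3.33 and Cd74 one of -2.97. Each GF WT mouse, above all WT_GF_229 and WT_GF_230, had more H2-Aa than every ABX WT mouse. F13a1 had medians of 35.1 CPM in ABX 5xFAD, 0 CPM in ABX WT, 7.60 CPM in GF 5xFAD and 2.75 CPM in GF WT mice, and its interaction of -8.09 depends on the prior count because most ABX WT mice had no read. In the limma fit with sample weights the adjusted p of these 5 genes ranged from 0.0887 to 0.143.

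**Figure D5:**
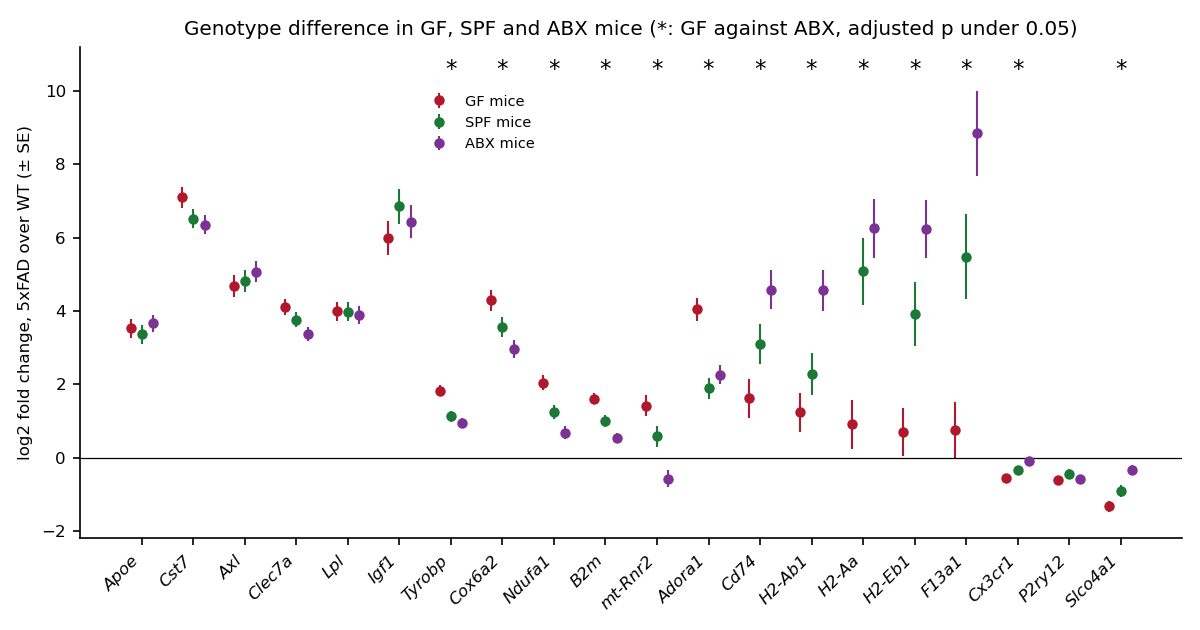
Log2 fold change of 5xFAD over WT (points) with its standard error (bars) for 20 genes in GF (red), SPF (green) and ABX mice (purple), with an asterisk where the GF and ABX differences had an interaction at an adjusted p under 0.05. The points of Apoe (3.53, 3.36 and 3.67) lie close together, while the plaque-associated genes Tyrobp, B2m, Cox6a2 and Cd74 carry an asterisk. The gene mt-Rnr2 is above 0 in GF and below it in ABX mice, and the class II genes and F13a1 are lowest in GF mice.

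The respiratory and ribosomal lists had their largest counts of calls in GF mice. Complex I genes called higher numbered 27 of 37 in GF, 1 in SPF and 3 in ABX mice, with medians of 0.58, 0.11 and 0.07, and 4 of them had an interaction against ABX mice. The SPF and ABX counts are thus 1 and 3 of 37 beside 3.73% and 9.45% of all tested genes called higher, and the SPF comparison called fewer genes of any kind. Complexes II to V gave 29, 2 and 5 of 39 with medians of 0.64, 0.17 and 0.10, and 5 interactions. Of the 7 mitochondrially encoded genes 7, 5 and 0 were called higher with medians of 0.96, 0.73 and -0.07, and 5 had an interaction. Of these 5, mt-Nd1, mt-Nd4, mt-Nd6 and mt-Cytb stayed under an adjusted p of 0.05 in 9, 10, 15 and 14 of the 28 fits that left out a mouse, and without WT_ABX_911 their edgeR adjusted p was 0.0944 to 0.110, while mt-Nd2 did so in 26. For mt-Cytb, GF WT mice (327 to 450 CPM) lay below ABX WT mice (499 to 764 CPM). GF 5xFAD mice (530 to 828 CPM) lay within the range of ABX 5xFAD mice (362 to 846 CPM). The lower GF WT level thus entered its interaction. SPF mice read 431 to 715 CPM in WT and 751 to 1057 CPM in 5xFAD mice. For mt-Nd2 GF WT mice were also below ABX WT mice (42.3 to 71.1 CPM against 96.7 to 177 CPM). Ribosomal proteins gave 50, 17 and 21 of 80 called higher, and 6 interactions. Most single genes of these lists thus did not pass the test of the difference itself. In GF mice the ranges of description numbers go with genotype except in FAD_GF_201 and cannot be told apart from it.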

How the data were processed

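Hippocampal microglia of 28 mice in 6 groups (3 housing conditions, 2 genotypes) were profiled by RNA sequencing, 1 library per mouse. The deposited values are raw read counts per gene, which the authors made by mapping reads with STAR 2.7.2 and counting with featureCounts 1.6.2 on GENCODE M21. The paper's methods name the mouse build GRCm38, and the submitters' processing notes name GRCh38.p12, a human build. Gene names matched M21 for 46484 of 48587 genes, so GRCm38 was used. The 92 spike-in rows, which together held at most 12 reads in a library, were set aside. The library kit does not mark strand, so overlapping genes cannot be separated.

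Counts were tested with edgeR 4.0.16 (R 4.3.3): filterByExpr (minimum count 10, total 15), TMM factors, a quasi-likelihood fit with 1 mean per group over all 28 mice, and Benjamini-Hochberg adjustment over the 15298 genes tested (threshold 0.05). Interactions are differences of the genotype contrasts. The SE printed with an edgeR fold change is its absolute value divided by the square root of the quasi-likelihood F statistic. It was derived from the test and not estimated separately, and it is a rough guide where WT mice had few reads. Single sums were tested by exact permutation over the 9 GF mice. CPM values use TMM factors, which were 0.918 to 0.954 in GF 5xFAD and 1.013 to 1.023 in GF WT libraries. List levels are means of log2 CPM with a prior count of 2. All mice count as replicates of their title's group.

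The 10 largest rises and falls were named among called genes with an average log2 CPM of at least 3 and groups without overlap, interactions as the 3 largest each way among called genes at that level, and list members by role. Members and lists were chosen with earlier results of these data known. Some list members and 1 gene of the genotype checks are not reported here. Alternatives were other size factors, other filters, DESeq2 1.42.0, limma 3.58.1 with sample weights, a fit of GF mice alone, a fit of 26 mice, length and GC offsets, and leaving out each mouse in turn. The test code was tested on simulated data. Promoter windows are RefSeq's.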

Additional observations from a re-analysis of the deposited data

Results flagged for a closer look

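Within groups, 101 sets of values were examined for a mouse far from its group, and 10 stood out, where chance gives about 1 in 20. Mouse FAD_GF_201 was the lowest GF 5xFAD mouse in the mean level of the cathepsin list (10.665 log2 CPM, next 10.945), in the summed endothelial markers (569.7 CPM, next 735.5) and in Cst7 (774.5 CPM, next 1335), and the highest in the summed microglia markers (55930 CPM, next 48300). FAD_GF_185 had the highest summed neuron markers (23.79 CPM, next 6.25) and the lowest Tgm2 (23.22 CPM, next 40.34). FAD_GF_181 had the lowest Adcy8 (0.05342 CPM, next 2.599). Among GF WT mice, WT_GF_199 had the lowest ribosomal protein list level (2.841 log2 CPM, next 3.282) and the lowest Ch25h (0.08952 CPM, next 0.7448), and WT_GF_231 the lowest Igf1 (0.3221 CPM, next 1.717).

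The genotype difference in GF mice departed from that in ABX mice for 269 genes by the interaction test. On the log2 scale the interaction was 1.996 for mt-Rnr2, 1.792 for Adora1, 1.678 for Rn18s-rs5, -8.092 for F13a1, -5.527 for H2-Eb1 and -5.338 for H2-Aa. For Rn18s-rs5 the adjusted p of edgeR was 0.0374 and stayed under 0.05 in 18 of the 28 fits that left out a mouse. For the other 5 it did so in all 28. By limma with sample weights mt-Rnr2 (adjusted p = 0.0105) and Rn18s-rs5 (0.0368) kept the call, while Adora1 (0.0900), F13a1 (0.102), H2-Eb1 (0.110) and H2-Aa (0.143) did not. For edgeR WT_GF_229 was the mouse whose absence weakened F13a1, H2-Eb1, H2-Aa and mt-Rnr2 most. Rows of spike-in RNA, which no source used here mentions as added, held up to 12 reads in a library.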

How the results depend on the processing

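The genes called between GF 5xFAD and GF WT mice numbered 2391 and kept within 1.5 times that count, in total and for genes called higher, in every alternative run except one. Mouse FAD_GF_201 alone against the WT mice gave 235, 213 higher and 22 lower. With library size as the only scaling 1919 were called lower, where the median of all genes moved down. Leaving out a mouse gave 1769 (without WT_GF_199) to 2746 genes (without FAD_GF_201). The interaction with SPF, 0 genes by the edgeR test, gave 2 with no filter, 25 with DESeq2, 116 with limma and sample weights, 3 in the fit of 26 mice and 0 to 8 without 1 mouse. The interaction with ABX, 269 genes, gave 576 with DESeq2 and 85 (without WT_GF_229) to 491 (without FAD_GF_201) without 1 mouse. The cause was not tested.

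Among the 27 genes named by rule or as checks, the change of sign was confined to genes not called: App (-0.008 with library size alone), H2-Eb1 and H2-Aa (-1.108 and -0.733 in FAD_GF_201 alone) and F13a1, which ran from -0.096 (without FAD_GF_201) to 2.33 (without WT_GF_229). Another 10 genes lost their call in FAD_GF_201 alone, and Rn18s-rs5 gained one in the fit of GF mice alone (log2 fold change 0.59, edgeR adjusted p = 0.0187). The other 1025 values for these genes kept sign and call. Of list members, which were followed by counts, Cd74 lost its call in some settings, complex I fell from 27 to 18 genes called higher without WT_GF_199 and the cell cycle list from 10 to 6 without FAD_GF_182. List medians moved by over 1 SD of the WT mice in 50 values and by less in 847. Depth limits genes near 1 CPM, where a library holds some 15 to 26 reads. No paired analysis was made. The study's methods speak of littermates, but the sources used here do not give the litter of each mouse.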

Other observations

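The genes of this section lie outside the lists and were picked by hand after their values were seen, so they describe single genes only. Apart from Phgdh and Asns they are abundant genes called in GF mice. Psat1, an enzyme of serine synthesis, read 286, 273, 252, 257 and 166 CPM in the GF 5xFAD mice and 27.2, 40.4, 44.1 and 38.2 CPM in the GF WT mice (log2 fold change 2.72, edgeR adjusted p = 4.10e-13). Phgdh, the first enzyme of the same pathway, read 34.6 to 41.5 CPM against 39.0 to 48.1 CPM and was not called (log2 fold change -0.24, edgeR adjusted p = 0.209), and Asns, asparagine synthetase, was near 1 CPM and not called (edgeR adjusted p = 0.271).

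Chst2, a sulfotransferase that modifies sugars of the cell surface, had a log2 fold change of 3.68, Plaur, the urokinase receptor, one of 2.95, and Lilrb4a, an inhibitory receptor, one of 3.12. The calcium-dependent membrane protein Anxa5 (2.20), the cholesterol ester hydrolase Nceh1 (2.17), the G protein subunit Gnas (2.09), the adhesion molecule Cadm1 (1.39) and Aplp2 (1.31), a relative of App, were also called higher. In SPF mice the log2 fold changes of Psat1 and Lilrb4a were 2.49 and 3.59, and in ABX mice 2.40 and 3.39.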
